A study of Mus musculus with 18 samples.

Results

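The ventricular transcriptome of adult mice that had received the control vector rAAV6-blank was described from 6 hearts, which were 6 of the 18 hearts of the series. The members were the 6 libraries labelled blank in the count table and in the FPKM table, 1 heart each from mice 26, 30, 32, 33, 34 and 36. All were male C57BL/6 mice aged 17 weeks. rAAV6-blank is an adeno-associated virus of serotype 6 that carries a promoter but encodes no protein, and it was given intravenously. Per the methods of the study, the mice underwent echocardiography under isoflurane anaesthesia before the hearts were removed. The other 12 hearts, injected with rAAV6-PLCβ1a or rAAV6-PLCβ1b, were not used. An uninjected heart was not analysed here, so the values describe ventricles after vector delivery. The labels give the tissue as both ventricles, whereas the methods of the study name the left ventricle.

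The adult ventricle is built mainly from cardiomyocytes, large contractile cells that occupy most of its volume, together with endothelial cells, fibroblasts, pericytes, smooth muscle cells and macrophages. In mice, ventricular myocytes replace several fetal isoforms around birth, among them the slow myosin heavy chain Myh7 by the fast Myh6 and the slow skeletal troponin I Tnni1 by Tnni3. Adult myocytes draw most of their energy from the oxidation of fatty acids in mitochondria. Atrial myocytes, the conduction system, autonomic nerves, valves and the outer mesothelial layer are small neighbours that a ventricular sample can contain.

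RNA was total RNA depleted of cytoplasmic ribosomal RNA, and counts per gene summed to 13354157 to 21470365 per heart. Most of these counts came from the mitochondrial genome. Mitochondrial genes held 67.8 to 70.3% of the counts, and a single gene, the large mitochondrial ribosomal RNA mt-Rnr2, held 55.7% ± 0.593 (SD, n = 6). The small ribosomal RNA mt-Rnr1 held 6.60% ± 0.367 and the cytochrome oxidase subunit mt-Co1 held 3.53% ± 0.129. Nuclear genes kept 3975102 to 6902968 counts per heart. Levels are therefore given as TPM, that is, counts divided by the merged exon length of the gene and scaled so that all nuclear genes of a heart sum to 1000000. For a count of 0, 3 counts were taken as the approximate upper limit. On a gene with 1000 bases of exon this limit corresponded to 1.20 to 2.08 TPM in a single heart, and it covers counting error only.

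The count table and the FPKM table did not hold the same mitochondrial transcripts. The mitochondrial messages mt-Co2, mt-Co3 and mt-Atp6 had 17 to 29, 17 to 34 and 9 to 18 counts per heart, but their deposited FPKM were 34946 to 39304, 41121 to 43679.9 and 20659.8 to 24236. The reverse held for mt-Rnr2, which was listed at 0 FPKM in all 6 hearts with 7456226 to 11815390 counts. Both mt-Rnr1 and mt-Co1 were listed at 0 FPKM in hearts 30, 33, 34 and 36, where mt-Co1 had at least 686458 counts, and at up to 96893 and 46686 FPKM in hearts 26 and 32. Of the nuclear genes, the small Cajal body RNAs Scarna10 and Scarna2 were listed at 0 FPKM in 6 and 4 hearts, with 127 to 264 and 118 to 185 counts there. None of these zeros was an absence of reads. The mitochondrial messages whose counts and FPKM were both high in all hearts were mt-Nd1, with 15564 FPKM, mt-Cytb, with 12548 FPKM, mt-Nd2, mt-Nd4, mt-Nd5 and mt-Nd6, the last at 659 FPKM. mt-Nd6, which is encoded on the opposite strand from the others, was the lowest of these 6.

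A smaller set of nuclear genes was also low in the counts and present in the FPKM. Across the 12758 nuclear genes measured on both scales, 1 FPKM corresponded to a median of 7.62 TPM, and 93.8% of the genes lay within 1.5-fold of that ratio. In 209 of 9616 genes with at least 1 FPKM, the TPM was more than 4-fold below what this ratio gives. Of these, 79 (37.8%) shared exonic bases with another gene on the same strand in the deposited annotation, against 2.14% of all genes with at least 1 FPKM, and the part that this sharing plays was not tested. The set held 28 cytosolic ribosomal protein genes, the adult globins, the ubiquitin gene Ubb, the glycolytic enzymes Gapdh, Pgk1, Pgam1 and Eno1, the myosin Myh7 and the muscle carnitine palmitoyltransferase Cpt1b. Gapdh, for example, stood at 23.3 TPM and 139 FPKM, and Pgk1 at 25.98 TPM and 33.5 FPKM. The counts of these genes cannot be read as their levels.

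With a mean of at least 1 TPM taken as detected, 13136 of 23393 nuclear genes were detected, and 12136 reached 1 TPM in every heart. A mean of at least 100 TPM was reached by 1451 genes, of at least 1000 TPM by 123 and of at least 10000 TPM by 9. The nuclear transcriptome was steep at the top. The most abundant gene alone made up 3.33% ± 0.121 of nuclear TPM (SD, n = 6), the 20 most abundant 21.5% ± 0.226 and the 100 most abundant 36.6% ± 0.313. Genes that encode proteins held 93.995% ± 0.389. Genes with less than 300 bases of exon, for which a length correction is unreliable, held 2.67% ± 0.241 and were left out of the ranking.

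Sarcomere genes led the ranking. Myl2, the regulatory light chain of ventricular myosin (chr5:122100980-122106854, mm10), was first at 33294 ± 1210.1 TPM, with 32113, 33090.2 and 34888 TPM as its lowest, median and highest heart. The alpha-cardiac actin Actc1 (chr2:114047289-114052811) followed at 19949 ± 1720.3 TPM, from 17823 to 21742. All 6 hearts had more Myl2 than any heart had Actc1. Below them stood Myh6, the fast myosin heavy chain of the adult mouse ventricle (chr14:54941921-54966607), at 12586 ± 371 TPM, the inhibitory troponin Tnni3 at 12023 ± 429.7, the tropomyosin-binding troponin Tnnt2 at 11100.5 ± 461 and the essential light chain Myl3 at 11006 ± 347. Neighbours in this order were not all separable. Actc1 overlapped with Rpph1 (16961 to 21294 TPM) and Mb (17142 to 18259.9 TPM), and by FPKM both averaged above it (4523, 3330.3 and 2927 FPKM). The ranges of Tnni3, Slc25a4, Tnnt2 and Myl3 overlapped (11379.5 to 12476, 10683 to 11638, 10487 to 11766 and 10399 to 11398 TPM). Tpm1, the main striated tropomyosin, stood at 6961 ± 123 TPM and the calcium-binding troponin Tnnc1 at 5764 ± 326. By FPKM Tpm1 stood higher, with a mean of 2840 above those of Myh6 (2198), Tnni3 (1873), Myl3 (1764) and Tnnt2 (1730). Its FPKM range of 2697 to 3006 overlapped that of Actc1 (2474 to 3377).

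The remaining leading genes served oxygen and energy supply, calcium cycling and RNA processing. Mb, the oxygen-storing myoglobin, stood at 17592 ± 404 TPM. The ADP/ATP carrier Slc25a4 reached 11184 ± 376 TPM. The calcium pump Atp2a2 (SERCA2), which refills the sarcoplasmic reticulum, stood at 7764 ± 378 TPM, and its inhibitory peptide phospholamban, Pln, at 9378 ± 477 TPM. Pln was higher than Atp2a2 in all 6 hearts, the ranges being 8956 to 10170.3 and 7347 to 8404 TPM, but by FPKM they overlapped, at 1252 to 1419 for Pln and 1236 to 1516 for Atp2a2. The ATP synthase subunits Atp5b and Atp5a1, the oxidase subunits Cox4i1 and Cox7a1, the lipoprotein lipase Lpl and the mitochondrial creatine kinase Ckmt2 completed the protein-coding part, with Ckmt2 in the twentieth place at 3894 ± 140.0 TPM. Only Rpph1, the RNA of ribonuclease P, at 18555 ± 1609.7 TPM, and the nuclear RNA Malat1, at 8727 ± 382 TPM, encode no protein. The giant sarcomere spring Ttn, which outranked every other nuclear gene by reads, stood at 2910.1 ± 94.2 TPM once its length was taken into account.

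**Figure D1:**
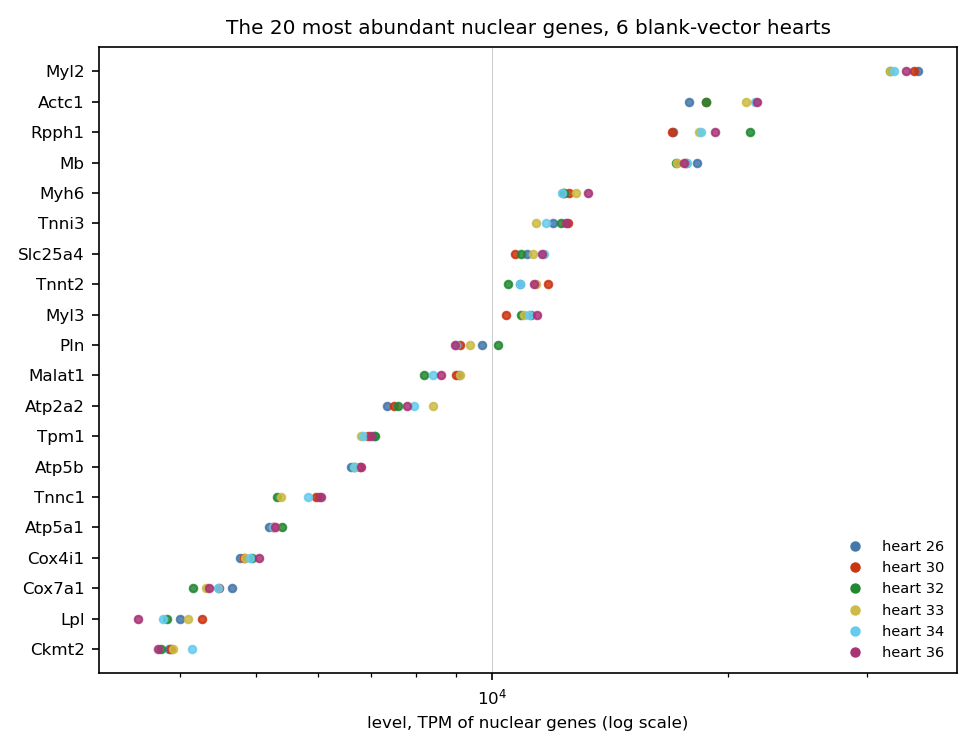
Level in TPM of nuclear genes, on a log axis, of the 20 most abundant nuclear genes with at least 300 bases of exon, with 1 point for each of the 6 hearts. Myl2 lies at 32113 to 34888 TPM, above all others, and the hearts of most genes lie close together, with wider spreads in Actc1 (17823 to 21742) and Rpph1 (16961 to 21294).

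Summed by function, the 22 listed contractile filament genes made up 13.5% ± 0.301 of nuclear TPM (SD, n = 6). The 85 nuclear genes of oxidative phosphorylation made up 11.2% ± 0.134, of which the largest were Atp5b at 6702 TPM, Atp5a1 at 5279.8, Cox4i1 at 4889.8 and Cox7a1 at 4410.1, and 82 reached 1 TPM. The 12 calcium-handling genes held 2.35% ± 0.0365. The 16 genes of fatty acid uptake and oxidation held 1.99% ± 0.0315, against 1.14% ± 0.0150 for the 16 of glucose uptake and glycolysis and 1.82% ± 0.0378 for the 16 of the citric acid cycle. In all 6 hearts the order of these was fatty acid oxidation (19445 to 20324 TPM), citric acid cycle (17692 to 18633 TPM) and glycolysis (11209.6 to 11593 TPM), with no overlap. Of the glycolytic genes, 4 were low in the counts. On the FPKM the shares were 1.53, 1.25 and 0.938% in the same order. Within fat use, Lpl (3928 TPM), the fatty acid binding protein Fabp3 (3039) and the fatty acid translocase Cd36 (1979) led, followed by the dehydrogenase of medium-chain fatty acids, Acadm (1609).

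Ribosomal protein genes were a small share in comparison. Cytosolic ribosomal proteins (79 genes) held 1.07% ± 0.0347 of nuclear TPM and 1.18% ± 0.0981 of nuclear FPKM, with 28 of them low in the counts. Mitochondrial ribosomal proteins (73 genes) held 0.862% ± 0.0101, and all 73 were detected. Rpl3l, a striated-muscle form of Rpl3, stood at 286 ± 14.1 TPM. Peroxide-removing and superoxide-removing enzymes (12 genes) held 0.418% ± 0.00983, led by the peroxiredoxins Prdx5 (847 TPM) and Prdx2 (641) and the mitochondrial superoxide dismutase Sod2 (554). The 44 collagen genes held 0.108% ± 0.00718, and the basement membrane chain Col4a1 (231 ± 27.2 TPM) was above the fibrillar chains Col3a1 (156 ± 19.1), Col1a2 (91.8 ± 7.96) and Col1a1 (55.4 ± 3.497).

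In 60 families of related genes, the share of the summed family TPM held by each member was computed in every heart. The leading member held at least 90% in 26 families, 50 to 90% in 32 and less than 50% in 2. In 55 of the 60 the leader was higher in every heart than the runner-up was in any. The FPKM gave the same leader in 59 families. The exception, carnitine palmitoyltransferase 1, is among both the 26 and the 55, on counts that cannot be read as levels. The families were chosen as ones with known cardiac isoforms, so these counts describe that choice of genes and not gene families at large.

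The contractile apparatus came close to a single isoform per protein. Tnni3 held 99.97% ± 0.0147 of troponin I, Tnnc1 99.9961% of troponin C and Tnnt2 99.7% ± 0.0540 of troponin T (SD, n = 6). The fetal troponin I Tnni1 stood at 0.482 TPM. Myl2 held 99.4% ± 0.0532 of the regulatory light chains, with the atrial form Myl7 at 0.359%, and Myl3 97.9% ± 0.110 of the essential ones, with the atrial and fetal form Myl4 at 0.763%. Actc1 held 97.6% ± 0.547 of muscle actin, and the skeletal actin Acta1 1.87%. Among myosin heavy chains Myh6 held 99.02% ± 0.205 of the TPM. Its slow relative Myh7 stood at 52.5 ± 14.8 TPM and 84.9 FPKM, against 2198 FPKM for Myh6, so its share was 0.412% by counts and 3.71% by FPKM. Mybpc3 held 99.1% ± 0.0559 of myosin-binding protein C and Actn2 94.8% ± 0.390 of alpha-actinin. Tropomyosin was Tpm1 by 96.5% ± 0.381, the cytoskeletal form Tpm4 coming second at 2.62%. The filamins, which crosslink actin, were shared between the muscle form Flnc (54.4% ± 2.67) and the widely expressed Flna (35.01%).

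Calcium cycling had the same form. Atp2a2 held 99.9% ± 0.0110 of the SERCA pumps, and Pln 99.7% ± 0.0123 of the pair formed with the atrial inhibitor Sln, which stood at 27.4 ± 2.37 TPM. The calcium release channel Ryr2 held 99.9% ± 0.0158, the calcium store protein Casq2 98.9% ± 0.186 and the exchanger Slc8a1 99.5% ± 0.146 of their families. The L-type channel Cacna1c held 94.2% ± 0.761 of the high-voltage calcium channels, ahead of the skeletal Cacna1s at 3.69%. IP3 receptors were mixed. Itpr1 held 61.4% ± 1.75, Itpr2 29.2% and Itpr3 9.41%, and their summed level was low beside Ryr2, with Itpr1 at 42.5 ± 3.06 and Ryr2 at 908 ± 51.3 TPM.

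Ion channels and gap junctions ranged from a dominant form to a division between members. The ventricular connexin Gja1 held 92.3% ± 0.447. Cacna2d1 held 99.04% ± 0.3003 of the auxiliary alpha2delta subunits. Of the inward rectifiers of the Kir2 group, Kcnj2 held 73.8% ± 2.49 and Kcnj12 24.2%. Pacemaker channels were low. Hcn2 stood at 17.5 ± 3.08 TPM with 62.5 to 75.4% of its family, and Hcn4, the main form of the sinus node, at 5.79 ± 1.51 TPM.

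Receptors and signalling enzymes had lower levels and wider splits. The beta-1 receptor Adrb1 held 77.3% ± 4.82 of the beta-adrenergic receptors at 18.5 ± 3.25 TPM, and Adrb3 had 0 to 1 counts. Of the alpha-1 receptors, Adra1a held 51.9% ± 2.19 and Adra1b 41.9%. Adra1a was the higher of both in each heart, but its range of 26.2 to 32.9 TPM overlapped that of Adra1b (20.2 to 28.4 TPM). Adenylyl cyclase was mainly Adcy6 (53.3% ± 3.22) ahead of Adcy5 (17.5%). Among the beta isoforms of phospholipase C, the family to which the proteins encoded by the study's other vectors belong, Plcb4 held 71.7% ± 1.89, Plcb3 19.2% and Plcb1 7.78%. Plcb1 stood at 7.97 ± 0.736 TPM, from 6.91 to 8.88, and no heart of Plcb1 reached the lowest of Plcb3 (17.7 TPM). Camk2d held 68.2% ± 1.12 of the calcium/calmodulin kinase II genes, and Prkca 84.2% ± 2.24 of the pair Prkca and Prkcb.

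Metabolic families kept their muscle forms in most cases. Eno3 held 99.95% ± 0.0185 of enolase, Pgam2 99.4% ± 0.0956 of phosphoglycerate mutase and Aldoa 99.4% ± 0.212 of aldolase, although in the first 2 families a widely expressed relative (Eno1, Pgam1) was low in the counts, and by FPKM Pgam2 held 94.001%. Lactate dehydrogenase was mainly Ldhb (74.8% ± 1.37), the heart form, with Ldha at 22.97%. The glucose transporters were led by the insulin-responsive Slc2a4 (89.8% ± 1.06). Of the hexokinases Hk2 held 63.6% ± 2.88 and Hk1 26.2%. Creatine kinase was divided almost evenly between the mitochondrial Ckmt2 (51.99% ± 0.949) and the cytosolic Ckm (47.4%). Fabp3 held 63.5% ± 1.29 of the fatty acid binding proteins and Fabp4, which endothelial cells also make, 35.6%. The widely expressed Cox4i1 held 99.6% ± 0.0421 of its pair with Cox4i2. The other oxidase subunits followed the heart and muscle forms, with Cox6a2 at 93.8% ± 0.432, Cox8b at 85.5% ± 1.28 and Cox7a1 at 75.1% ± 1.24 of their families.

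Other enzymes, pores and adhesion proteins ranged from near-single forms to even splits. The muscle phosphofructokinase Pfkm held 87.1% ± 0.856, and the energy sensor AMPK was mainly Prkaa2 (84.4% ± 1.11 of the catalytic subunits) with Prkag1 (86.3% ± 1.52 of the gamma subunits). Slc25a4 held 95.97% ± 0.225 of the ADP/ATP carriers, whereas the pores of the outer mitochondrial membrane were split into Vdac1 (60.5% ± 0.673), Vdac2 (30.04%) and Vdac3 (9.44%). The LIM protein Fhl2 held 96.5% ± 0.470 of its family at 3126 ± 190.4 TPM. Caveolins, which shape membrane pits, were led by the widely expressed Cav1 (61.5% ± 1.10) and not by the muscle form Cav3 (20.004%). The laminin alpha chains of the basement membrane were divided into Lama2 (41.3% ± 2.22), Lama4 (32.3%) and Lama5 (25.4%), and Itgb1 held 74.99% ± 1.65 of the integrin beta chains.

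The leader of a single family depended on the table. For carnitine palmitoyltransferase 1, which admits long-chain fatty acids to mitochondria, the counts gave the liver form Cpt1a 90.1% ± 1.55 of the family and the muscle form Cpt1b 5.13%, whereas the FPKM gave Cpt1b 93.9%. Cpt1b had 11 to 22 counts and 90.03 to 115 FPKM per heart, and Cpt1a had 233 to 701 counts and 4.56 to 8.86 FPKM. Cpt1b was also among the genes that share exons with a neighbour on their strand.

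In 3 more families the share of the leader differed widely between hearts. The pyruvate dehydrogenase kinases, which restrain glucose oxidation, were led by Pdk2 in 3 hearts and by Pdk4 in the other 3. Pdk2 was stable at 302 to 342 TPM, while Pdk4 ranged over 159 to 674 TPM, so that the share of Pdk2 ran from 27.3 to 50.8%. The uncoupling protein Ucp3 held 55.8 to 81.3% of its family with 21.04 to 99.7 TPM. The natriuretic peptide gene Nppb held 52.7 to 73.9% of the natriuretic peptides with 274 to 883 TPM and was ahead of Nppa (247 to 393 TPM) in all 6 hearts, though the ranges overlapped.

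Transcription factor families were also shared between members. Gata4 held 50.3% ± 1.84 and Gata6 41.3%, with ranges of 69.6 to 83.3 and 58.1 to 70.03 TPM that met. Mef2a held 55.9% ± 2.68, followed by Mef2d (23.7%) and Mef2c (20.2%). The lipid-sensing receptor Ppara held 62.04% ± 3.22, Esrra 72.7% ± 2.04 of the estrogen-related receptors and the thyroid hormone receptor Thra 77.5% ± 2.29.

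**Figure D2:**
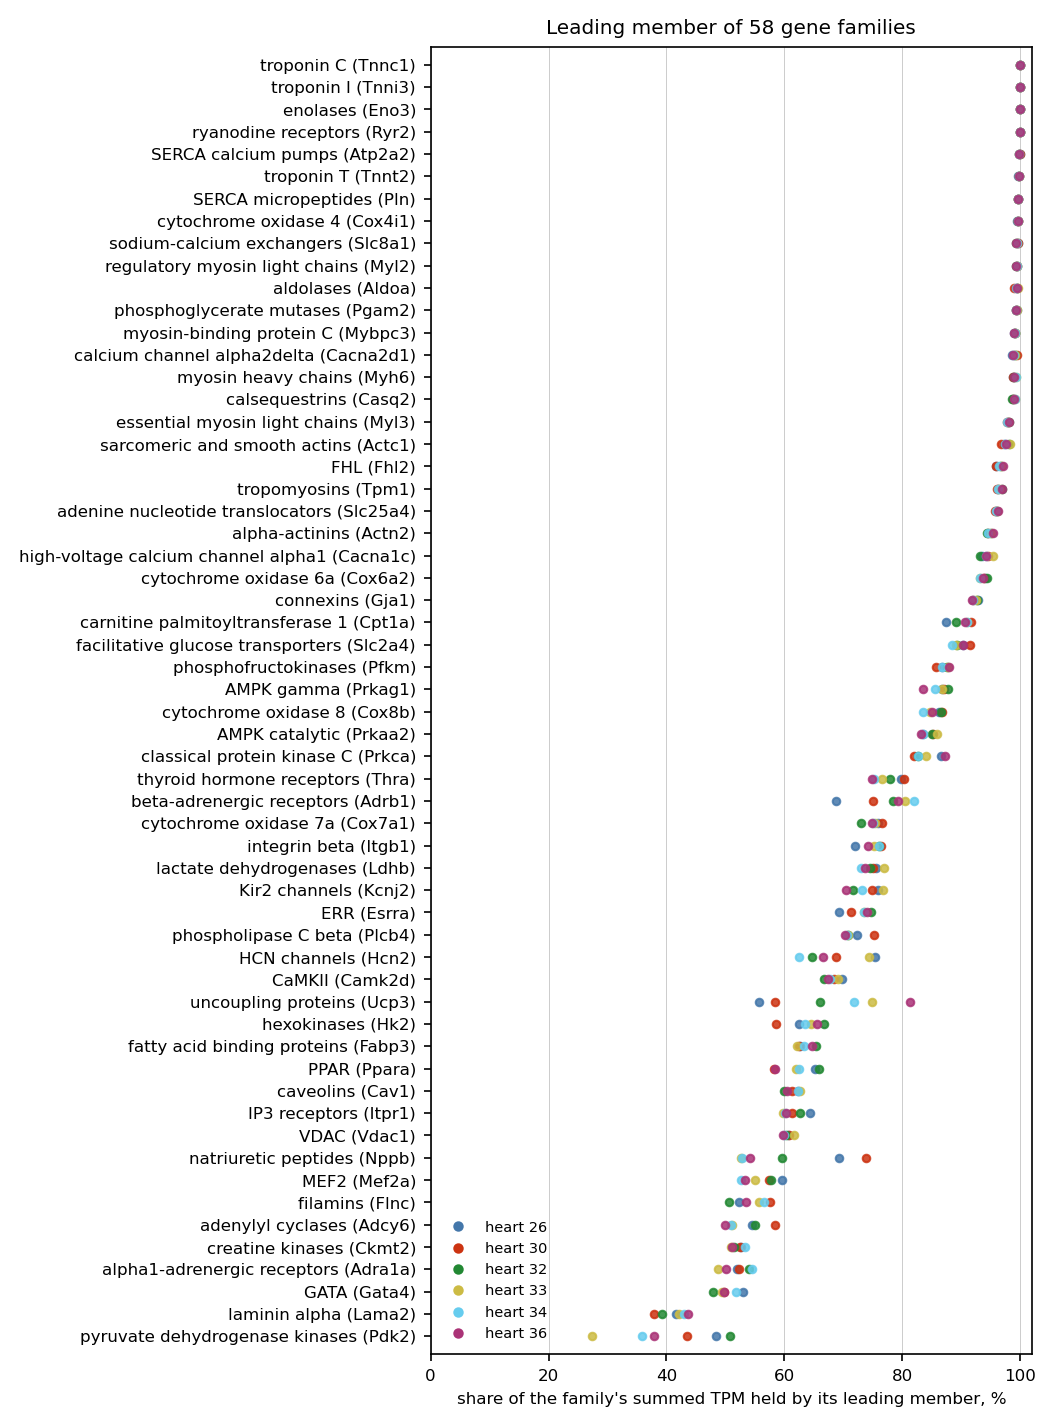
Share, in percent, of the summed family TPM held by the leading member (in brackets) of 58 of the 60 gene families, with 1 point for each of the 6 hearts. Sarcomere and calcium-cycling families lie near the right edge with the hearts on top of each other, and the pyruvate dehydrogenase kinases (27.3 to 50.8%), uncoupling proteins (55.8 to 81.3%) and natriuretic peptides (52.7 to 73.9%) are spread widely.

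Cell-type content was described by the summed TPM of marker lists. In bulk tissue, fewer cells of a type and less RNA per cell cannot be told apart. The 12 cardiomyocyte genes summed to 103326 ± 1909.9 TPM (SD, n = 6), or 10.3% of nuclear TPM. The ventricular markers Myl2, Myl3, Irx4 and Hey2 were all present, with the transcription factors Irx4 at 32.9 ± 2.68 and Hey2 at 9.11 ± 0.587 TPM. The 5 lists for endothelium, fibroblasts, pericytes, smooth muscle and macrophages together made up 0.498% ± 0.0113 of nuclear TPM, and all of their 47 genes reached 1 TPM. Lists differ in length and in how strongly a cell transcribes its markers, so their sums do not give cell numbers.

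Fibroblast genes summed to 1531 ± 65.6 TPM, most of it from the proteoglycan decorin, Dcn (831 ± 26.5 TPM), while the fibroblast receptor Pdgfra stood at 34.7 ± 3.18 and the transcription factor Tcf21 at 8.56 ± 3.06 TPM. Endothelial genes summed to 1230.1 ± 68.6 TPM, with the junction proteins Cdh5 at 159.8 ± 7.90 and Pecam1 at 157 ± 22.4 TPM and the growth factor receptor Kdr at 153 ± 19.05. Pericyte genes summed to 1062 ± 28.2 TPM and were led by Rgs5 (589 ± 30.6 TPM). Their second gene, Abcc9 (282 ± 11.3 TPM), encodes a potassium channel subunit that ventricular myocytes also make. Smooth muscle genes were lower, at 343 ± 30.5 TPM, with the smooth muscle myosin Myh11 at 44.8 ± 4.37 TPM. Macrophage genes summed to 809 ± 71.1 TPM, from 705 in heart 32 to 899.7 in heart 33. They were led by the lysozyme Lyz2 (337 ± 35.3 TPM) and the complement genes C1qa, C1qb and C1qc (109, 85.8 and 109 TPM), with the resident macrophage receptors Mrc1 at 48.96 ± 6.10 and Cd163 at 21.3 ± 2.25 TPM.

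Other blood cells left few reads. None of 7 T cell genes and none of 5 B cell genes reached 1 TPM, and the sums were 0.785 to 3.25 and 1.53 to 5.93 TPM. Cd3e had 2 counts in all hearts together. The neutrophil genes S100a8 and S100a9 were at 6.02 ± 4.82 and 5.69 ± 4.55 TPM, with 1 to 8 and 2 to 13 counts per heart. The neutrophil sum was 27.8 TPM in heart 30 and 25.6 in heart 32 against 5.10 to 11.04 in the other 4. Mast cell genes, among them the chymase Cma1 and the receptor Kit, were all detected at a sum of 16.1 ± 2.41 TPM. Red cell RNA could be read only on the FPKM scale, because all 4 adult globin genes of the tables had 0 counts in every heart. Their FPKM were 125 to 211 for Hba-a1, 95.9 to 180.1 for Hba-a2, 26.6 to 91.3 for Hbb-b1 and 58.3 to 130.0 for Hbb-b2. Alas2, the heme enzyme of red cell precursors, stood at 38.1 ± 8.46 TPM, whereas the anion exchanger of the red cell membrane, Slc4a1, stood at 1.53 ± 0.615 TPM.

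Neighbouring tissues were traced by their markers. Atrial genes summed to 546 ± 70.9 TPM, from 438 to 636. Of these, Nppa (311 ± 59.2 TPM) is also made by ventricular myocytes, the light chains Myl7 and Myl4 stood at 120.2 ± 18.3 and 85.5 ± 8.71 TPM, and the atrium-restricted growth factor Bmp10 had a single count in all 6 hearts. Conduction system genes were low, with Tbx3 at 7.58 ± 1.22, Cntn2 at 3.80 ± 0.814 and Gja5 at 8.06 ± 1.20 TPM, and Isl1 had no count. Mesothelial genes were all detected (6 of 6), Upk3b at 11.9 ± 1.99 and the Wilms tumour gene Wt1 at 8.33 ± 1.28 TPM. The lymphatic genes Lyve1, which macrophages also carry, and Flt4 stood at 40.9 ± 7.05 and 15.3 ± 2.12 TPM, and Ccl21a had 0 counts but 5.10 FPKM. Nerve-derived RNA was not detectable for Th, Chat and Snap25, each with 0 counts, for which the approximate upper limit was 0.0897 to 0.143 TPM over the 6 hearts together. Dbh, which makes noradrenaline, was nonetheless present at 4.40 ± 0.653 TPM, with 11 to 30 counts in each heart. The 6 Schwann cell genes summed to 13.2 ± 4.47 TPM.

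RNA of unrelated tissues was low. The 4 lung genes had no counts in any heart, for which the approximate upper limit was 0.0908 to 0.538 TPM per gene. The thymus list reached at most 0.419 TPM in sum. In the liver list, Alb and Apoa1 had 0 counts while Ahsg, which encodes fetuin-A, had 12 to 27 counts and 6.68 ± 0.889 TPM. In the skeletal muscle list only Tnni2 reached 1 TPM (3.54 ± 1.76), and the myogenic factor Myog had no count. The white fat list summed to 6.84 ± 3.20 TPM, from 2.58 to 11.1, led by Cfd at 4.40 ± 2.33 TPM, which made up most of it, with Adipoq at 0.828 ± 0.640 TPM. In the brown fat list Ucp1 had 1 count in all, but Cidea, a lipid droplet protein best known from brown fat, stood at 44.7 ± 1.73 TPM, from 42.3 to 47.6 in the 6 hearts. The proliferation markers Mki67 and Top2a stood at 4.68 ± 0.756 and 4.05 ± 0.458 TPM. The Y-linked genes Eif2s3y, Ddx3y, Uty and Kdm5d were present in every heart and Xist had 0 to 2 counts, which matched the label of male mice.

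**Figure D3:**
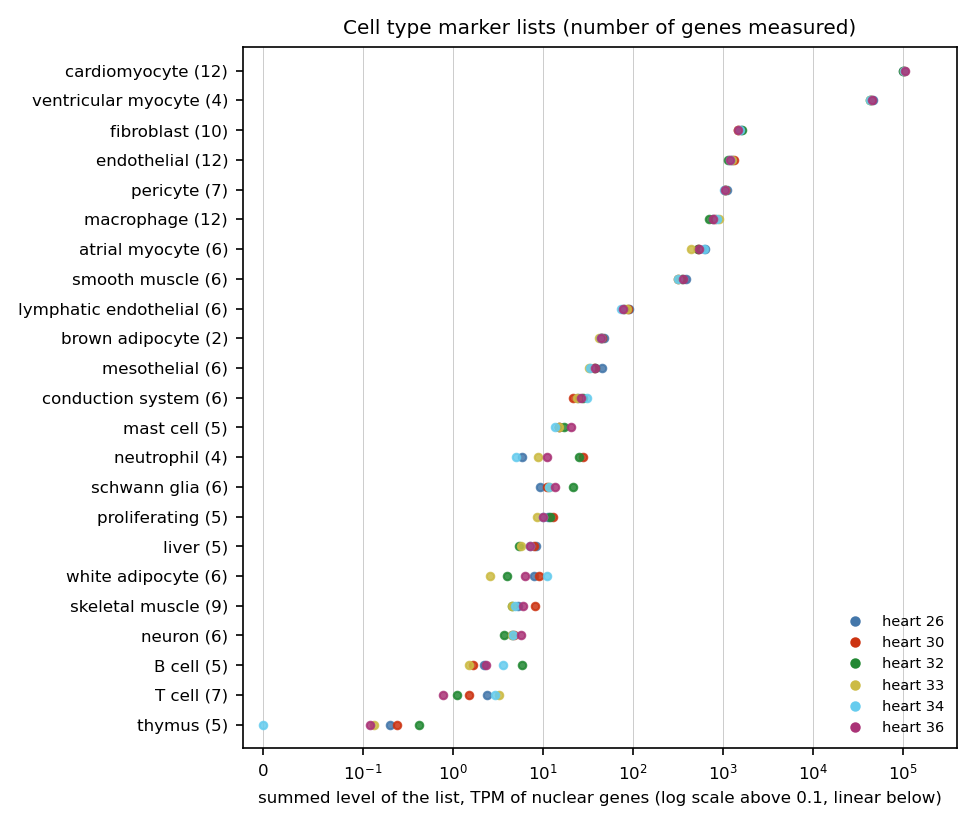
Summed level in TPM of each cell type marker list, on an axis that is logarithmic above 0.1 and linear below, with 1 point for each of the 6 hearts and the number of genes measured in brackets. Cardiomyocyte genes lie near 103326 TPM, the 4 lists of fibroblasts, endothelium, pericytes and macrophages between 705 and 1627 TPM, and the lymphocyte lists at or below 5.93 TPM with the hearts widely spread. The lung list, at 0, and the red cell list, whose globins had no counts, are not drawn.

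Variation between hearts was measured on counts scaled by TMM, a trimmed mean of gene ratios, in the 8967 nuclear genes with a mean of at least 50 counts. From the coefficient of variation (SD over mean, n = 6) the part that counting alone gives was subtracted, and the remainder is given as the excess variation. Its median was 4.34%, it was 0 in 2805 genes (31.3%), above 10% in 1633 (18.2%) and above 30% in 60 (0.669%). A value of 0 means that counting could give the whole spread, and not that a gene was equal in all hearts. The counting part itself had a median of 7.30%. At a mean of at least 1000 counts, 46 of 784 genes were at 0. Heart 30 stood apart from the rest. Its correlations with the other hearts across genes (r of 0.983 to 0.988 on log2 values) included the lowest, against 0.987 to 0.993 among the other 5, and it was the highest or lowest heart in 44.6% of the genes, against 26.9 to 36.7% for each other heart. It differed by more than 1.5-fold from the mean of the others in 193 genes, and the other hearts did so in 26 to 77. Its depth, 18180534 counts, lay in the middle of the range. Its share of counts in mt-Rnr1 was the highest, 7.16% against 6.20 to 6.77% in the other hearts. The same held for mitochondrial genes that encode proteins, at 7.56% against 6.44 to 6.90%. Its nuclear share was the lowest, 29.66% against 29.77 to 32.15%. Without heart 30 the number of genes above 30% was 22, of which 20 were among the 60. The labels give no batch. Neither they nor the methods give the time of day at which each heart was taken, or how long each mouse was under anaesthesia.

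The medians of the oxidative phosphorylation, citric acid cycle and glycolysis lists were below the 4.34% over all genes. Those of the cardiomyocyte and contractile filament lists lay near it. The list of lipid genes, given below, was wider, with a median of 10.9%. The 12 cardiomyocyte genes had a median excess variation of 4.13% and at most 9.24% (Actc1). The median was 3.93% over 77 oxidative phosphorylation genes, 2.54% over 16 citric acid cycle genes, 2.76% over 14 glycolysis genes and 1.36% over 70 mitochondrial ribosomal protein genes. Pericyte genes were as even, with 3.39% over 7 genes, and the other stromal lists were wider, with 5.55% over 9 fibroblast genes, 6.36% over 12 endothelial genes, 9.57% over 5 smooth muscle genes, 9.22% over 8 macrophage genes and 9.72% over 21 collagens. The 12 calcium-handling genes had a median of 4.74%, none above 10%, against 18.2% of all genes above 10%. The 22 contractile filament genes had a median of 5.12%, with 4 above 10%. The widest of these was Tcap, the cap of titin at the Z-disc, at 39.4%. Its level was 605, 322, 1066, 1148, 968 and 1215 CPM (counts per 1000000 nuclear counts after TMM scaling, for use within a gene only) in hearts 26, 30, 32, 33, 34 and 36, so that heart 30 was lowest, heart 26 next, and the other 4 did not overlap with them. Leaving out heart 30 brought its excess variation to 23.9%.

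At a mean of at least 1000 counts, 46 of 784 genes varied no more than counting allows. The 15 with the lowest total variation were Dlst, Dlc1, Pnpla8, Usp9x, Fhod3, Ptp4a2, Rb1cc1, Atp5j2, Nfib, Ptgr2, Ube3a, Son, Kpnb1, Klf9 and Ndufa3. All 15 varied less than counting alone gives, so their order cannot be told from counting error. Dlst, a subunit of the 2-oxoglutarate dehydrogenase complex, had a total variation of 0.868%, against 1.73% from counting. Its level was 632, 636, 631, 625.3, 635 and 642 CPM in the 6 hearts, with a ratio of 1.03 between the highest and the lowest. Dlc1, a GTPase-activating protein, Pnpla8, a mitochondrial phospholipase, and the deubiquitinase Usp9x had ratios of 1.03, 1.03 and 1.03. The respiratory subunits Ndufa3 and Atp5j2 and the glucocorticoid-responsive factor Klf9 were also in this set.

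**Figure D4:**
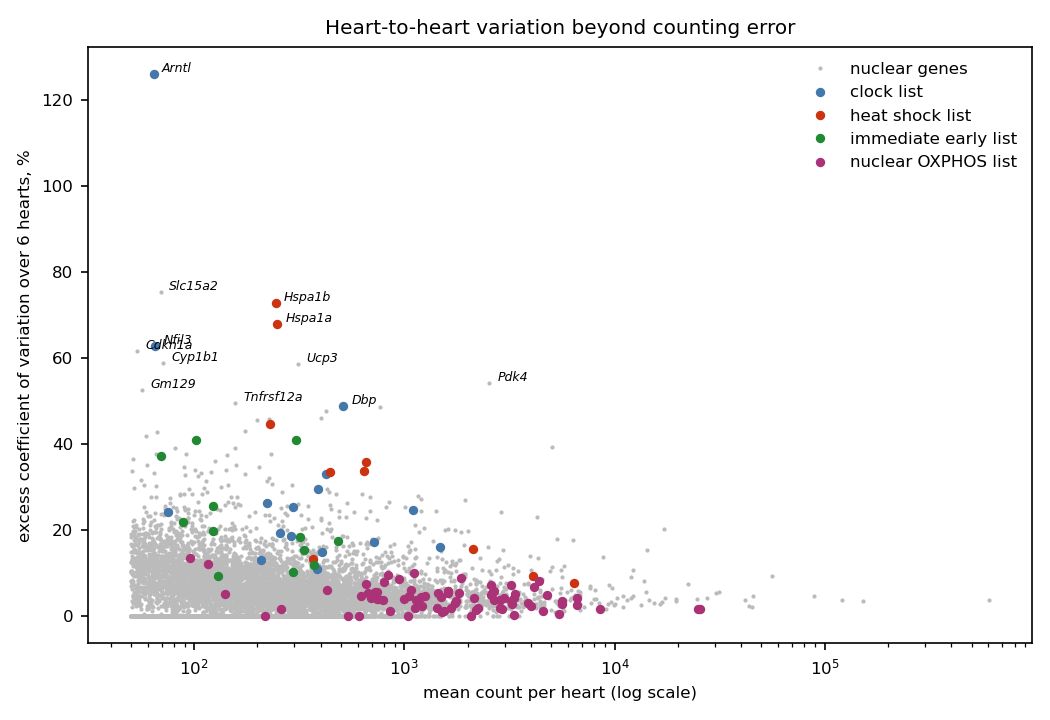
Excess coefficient of variation over the 6 hearts, in percent, against the mean count per heart on a log axis, with 1 point for each of 8967 nuclear genes and 4 gene lists in colour. Clock, heat shock and immediate early genes lie high, with Arntl at 126%, and oxidative phosphorylation genes lie low, at a median of 3.93%.

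Over all 6 hearts the heat shock and circadian clock lists had the highest medians of the lists with more than 1 measured member. Without heart 30 the clock median fell below those of the wall stress and immediate early lists. In the clock, the activators Arntl (Bmal1) and Clock drive their own repressors Per and Cry and output factors such as Dbp and Tef through E-box sequences, and the receptors Nr1d1 and Nr1d2 repress Arntl in turn, so that Arntl and Dbp peak at opposite times of day. All 16 members with enough counts had an excess variation above 10%, with a median of 24.4%, against 18.2% of all genes above 10%. Arntl had the highest excess variation of all genes, 126%, with 11.9, 43.3, 5.47, 4.31, 5.31 and 3.22 CPM in hearts 26, 30, 32, 33, 34 and 36. Heart 30 was 7.16-fold above the mean of the others, heart 26 came next and the remaining 4 lay between 3.22 and 5.47 CPM. Nfil3, a repressor at D-box sites, had the same order at the top, with 13.6, 26.7, 5.96, 7.03, 9.41 and 9.21 CPM.

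The opposite order appeared in the output genes. Dbp, an activator at D-boxes, had 55.7, 17.9, 113, 118, 96.6 and 133 CPM in the same hearts, and heart 30 was at 0.173 of the mean of the others. Gm129 (Ciart), a repressor of the clock that the files name by its older symbol and that is not counted among the 16, had 4.14, 2.45, 9.44, 14.2, 12.4 and 14.5 CPM. Per3 had 58.4, 32.8, 90.2, 91.1, 80.3 and 99.2 and Per1 54.8, 35.8, 66.6, 79.6, 78.2 and 92.9 CPM. In each of these 4 genes heart 30 was lowest and heart 26 second lowest. Over the list, heart 30 was the highest heart in 5 genes (Arntl, Clock, Cry1 and Nfil3 among them) and the lowest in the other 11, and so at an end in 16 of 16, against 44.6% of all genes. Heart 26 stood next to it in 13 of the 16. Without heart 30 the median of the list was 15.5%, and 12 of the 16 were above 10%. Arntl and Nfil3 passed the minimum of 50 counts only through heart 30, so their values without it, 53.5 and 29.2%, rest on fewer counts than the minimum. Nr1d1 and Nr1d2 differed less, with 86.4, 53.3, 82.01, 75.6, 70.3 and 77.4 and 259, 184, 290.3, 301, 276 and 292 CPM, and the other 5 hearts of Nr1d2 lay between 259 and 301 CPM.

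The starts of 3 of these genes are shown because each holds a different kind of clock element in the 250 bases before and 50 bases after its annotated start (RefSeq sequences, build GRCm38.p6). Both strands were searched for the E-box CACGTG, the D-box TTANGTAA and the element of the ROR and Nr1d receptors, which is AGGTCA preceded by AANT, where N is any base. They occur in 7.15, 2.32 and 0.219% of the 32851 mouse promoter windows. The shorter AGGTCA alone, which overlaps every match of the last, occurs in 16.3%. Of the 25 most variable genes, 20 had a window. Of these, 4 held an E-box, 0 a D-box, 1 the ROR element and 6 the shorter AGGTCA. Capitals mark the E-boxes of Gm129, of which there are 3, the 2 D-boxes of Per3 and the single ROR element of Arntl, which lies in the second of its annotated starts and within the transcribed part.
Gm129 (chr3:95882179-95882478, minus strand): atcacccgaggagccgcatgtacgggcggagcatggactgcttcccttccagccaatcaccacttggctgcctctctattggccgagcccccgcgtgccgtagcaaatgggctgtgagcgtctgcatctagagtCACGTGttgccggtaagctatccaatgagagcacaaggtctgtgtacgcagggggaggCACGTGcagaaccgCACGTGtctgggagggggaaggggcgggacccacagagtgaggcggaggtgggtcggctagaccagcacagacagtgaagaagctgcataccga
Per3 (chr4:151044616-151044915, minus strand): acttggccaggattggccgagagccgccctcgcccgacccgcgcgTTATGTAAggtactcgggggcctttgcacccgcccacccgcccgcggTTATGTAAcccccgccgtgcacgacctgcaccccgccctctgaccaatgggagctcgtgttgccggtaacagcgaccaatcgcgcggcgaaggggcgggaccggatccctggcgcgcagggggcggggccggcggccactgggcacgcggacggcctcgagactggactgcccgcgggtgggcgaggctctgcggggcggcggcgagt
Arntl (chr7:113207261-113207560, plus strand): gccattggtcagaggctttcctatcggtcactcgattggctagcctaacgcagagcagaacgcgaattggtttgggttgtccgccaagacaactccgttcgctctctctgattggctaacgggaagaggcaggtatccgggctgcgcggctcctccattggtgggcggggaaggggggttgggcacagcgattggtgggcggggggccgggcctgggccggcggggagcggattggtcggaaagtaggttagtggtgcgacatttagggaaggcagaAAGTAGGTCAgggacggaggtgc
Counted from the annotated start, the E-boxes of Gm129 began at positions -116, -58 and -44, the D-boxes of Per3 at -205 and -158 and the element of Arntl at 27. The windows of Dbp, Clock, Cry2, Nr1d1, Nr1d2, Hlf and Nfil3 held no E-box, D-box or ROR element. A match of letters is not evidence that a factor was bound there, and binding was not measured.

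Heat shock genes differed in another pattern of hearts. The list of 11 had a median excess variation of 33.5%, 25.2% without heart 30. In it, 6 members were above 30%, against 0.669% of all genes. Hspa1b and Hspa1a, which encode nearly identical inducible HSP70 chaperones, had 58.7, 24.8, 18.9, 10.4, 93.7 and 48.6 and 59.6, 40.1, 14.4, 8.47, 88.2 and 50.02 CPM in hearts 26, 30, 32, 33, 34 and 36. Hearts 34, 26 and 36 were highest in Hspa1b and hearts 32 and 33 lowest. Reads that fit both copies cannot be assigned to either, so both values are uncertain. The cochaperone Dnajb1 had 45.03, 15.6, 36.5, 25.7, 63.5 and 57.04 CPM, with hearts 34 and 36 highest and heart 30 lowest. In the HSP90 gene Hsp90aa1 (142, 179, 72.1, 73.2, 143 and 105 CPM), in Hsph1 (129.5, 138, 70.3, 73.7, 169.7 and 105 CPM) and in the small heat shock gene Hspb1 (86.4, 125, 55.9, 56.4, 96.1 and 63.8 CPM), hearts 32 and 33 were again the lowest pair, and heart 30 or 34 was highest. The remaining members varied less. Hspd1 was at 5.96%, the lens and muscle chaperone Cryab at 7.79% and Hspb7 at 9.26%, whereas Hspe1 was at 13.2% and Hspa8 at 15.6%.

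The promoter windows of the HSP70 pair are shown because only Arntl and Slc15a2 varied more than these genes, with the heat shock element GAANNTTC in capitals. This motif, searched on both strands, was present in 7.86% of all promoter windows. Among the 20 most variable genes with a window, 3 held it, Rcan1 besides this pair. In both genes it began at position -104 from the annotated start.
Hspa1b (chr17:34959189-34959488, minus strand): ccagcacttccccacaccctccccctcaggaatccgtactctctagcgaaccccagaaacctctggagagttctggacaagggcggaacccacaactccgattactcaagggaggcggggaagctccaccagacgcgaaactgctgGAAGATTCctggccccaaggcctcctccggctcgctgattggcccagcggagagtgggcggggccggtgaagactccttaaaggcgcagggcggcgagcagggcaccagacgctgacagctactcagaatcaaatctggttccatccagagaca
Hspa1a (chr17:34972107-34972406, minus strand): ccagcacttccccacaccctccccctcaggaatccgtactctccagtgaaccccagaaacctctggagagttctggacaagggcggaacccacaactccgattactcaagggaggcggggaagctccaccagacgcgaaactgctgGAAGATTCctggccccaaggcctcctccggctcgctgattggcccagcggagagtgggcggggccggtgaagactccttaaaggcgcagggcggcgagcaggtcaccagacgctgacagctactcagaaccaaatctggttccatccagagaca
Both genes carried the same element at the same distance.

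Immediate early genes, which respond within minutes to stimulation, had a median excess variation of 19.1% over the 12 of 17 members with enough counts. Of these 12, 11 were above 10%, against 18.2% of all genes. Heart 30 was the lowest in 9 of the 12 and the highest in 0, whereas over all genes it was at either end in 44.6%. The nuclear receptor Nr4a1 had 60.6, 19.2, 52.2, 42.2, 65.1 and 85.1 CPM, Fos 14.6, 4.14, 12.7, 9.75, 15.8 and 17.7 CPM and Egr1 16.1, 8.47, 9.44, 23.01, 21.1 and 26.5 CPM. In Fos and Nr4a1, heart 30 lay below all others and heart 36 was highest. In Egr1, hearts 30 and 32 were close together at the bottom. Without heart 30 the list had a median of 15.8%, and 10 members were above 10%.

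In the list of lipid genes, 5 of the 10 members with enough counts had an excess variation above 10%, against 18.2% of all genes. Pdk4, which fasting and fatty acids induce, had 221, 355, 198, 825, 527 and 436 CPM in hearts 26, 30, 32, 33, 34 and 36, an excess variation of 54.3%. Heart 33 was highest and hearts 32 and 26 lowest, and without heart 30 the value was 58.1%. Ucp3 had 24.1, 18.4, 36.3, 85.2, 58.4 and 88.9 CPM (58.5%), with hearts 30 and 26 lowest and hearts 36 and 33 highest. Cpt1a (19.9%), the thioesterase Acot1 (16.1%) and the lipid droplet protein Plin2 (11.9%) were also above 10%, Fabp3 was at 7.80% and Cd36 at 3.16%. The median was 10.9%, and 10.6% without heart 30. The glucocorticoid list had a median of 12.3% over 9 genes and was widest in the cell cycle inhibitor Cdkn1a (61.7%), which had 9.98, 21.6, 4.22, 8.63, 8.05 and 5.996 CPM, heart 30 being highest. Without heart 30 its value was 26.4%, on a mean below 50 counts. Zbtb16 had 143, 266, 139.7, 183, 174 and 171 CPM, also highest in heart 30, whereas Tsc22d3 had 161, 120.3, 142, 174, 173 and 159 CPM and was lowest there. Interferon-responsive genes, 5 of 14 with enough counts, had a median of 4.90%, and 8.44% without heart 30, with Rsad2 highest at 21.7% over all hearts.

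Genes of wall stress had a median excess variation of 18.7% over 7 members, and 20.2% without heart 30. Nppb, the gene of brain natriuretic peptide, had 245, 226, 109, 75.7, 118 and 101.9 CPM in the 6 hearts. Hearts 26 and 30 were above the others, which reached 118 CPM at most. Nppa did not share this split, with 116, 84.7, 78.8, 72.4, 112 and 91.4 CPM. Acta1 had 204, 299.6, 149, 154, 258 and 222 CPM, highest in heart 30, and Myh7 146, 92.2, 116, 84.7, 85.6 and 161 CPM, highest in heart 36, on counts that were low against its FPKM. Ankrd1, a strain-responsive protein of the sarcomere, was steadier at 11.8%, and Ctgf at 4.85%.

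The remaining genes among the 25 most variable were mostly highest in heart 30. Cyp1b1, an enzyme of the aryl hydrocarbon response, had 11.4, 28.99, 10.4, 10.1, 10.8 and 7.17 CPM, and the other 5 hearts varied by 9.21% among themselves. Rcan1, a feedback inhibitor of calcineurin, had 95.2, 149.6, 62.4, 56.9, 60.9 and 50.2 CPM, and Abra, an actin-binding protein of striated muscle, 81.8, 139.7, 52.4, 51.9, 58.1 and 58.4 CPM. The receptor Tnfrsf12a had 34.8, 56.3, 18.9, 18.1, 24.4 and 22.1, the stress factor of the endoplasmic reticulum Manf 51.4, 66.8, 32.8, 23.01, 27.6 and 25.4, the metalloprotease Adam19 68.2, 68.9, 42.5, 27.97, 29.9 and 24.6 and the podosome scaffold Sh3pxd2b 13.9, 22.8, 13.4, 7.35, 10.02 and 8.34 CPM. In all 7 of these genes heart 30 was highest and heart 26 second, and Adam19 was nearly equal in both. Irs2, an adaptor of the insulin receptor, had 31.9, 9.79, 23.9, 22.7, 39.02 and 37.7 CPM and was lowest in heart 30. Scand1 was also lowest there, with 5.11, 5.08, 14.2, 8.95, 14.6 and 14.04 CPM, and was equally low in heart 26. Slc15a2, a peptide transporter, followed neither pattern, with 6.33, 19.95, 2.73, 5.11, 10.8 and 24.9 CPM, highest in heart 36 and lowest in heart 32. Heart 30 was the highest or the lowest heart in 20 of the 25 genes, and in 44.6% of all genes. The 25 were chosen for their spread over these same hearts, which favours genes in which a deviating heart is at an end. Their count therefore cannot show by itself that heart 30 stood apart.

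**Figure D5:**
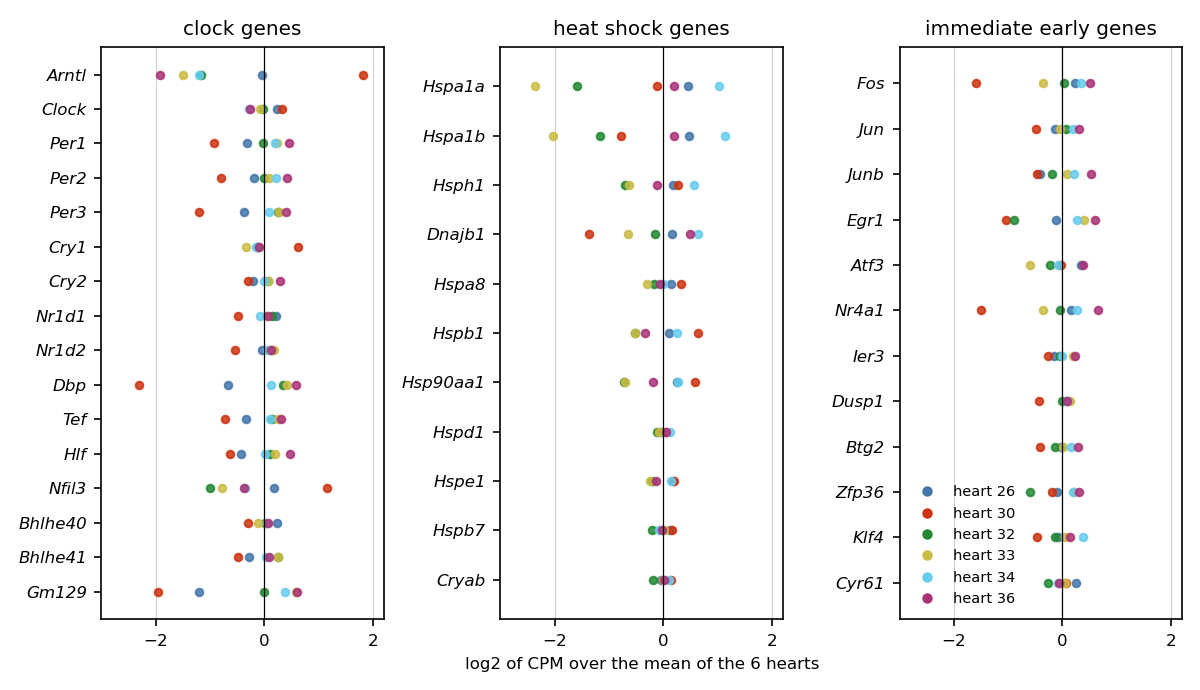
Level of clock, heat shock and immediate early genes in each heart, as log2 of its CPM over the mean of the 6 hearts, with 1 point for each heart and the vertical line at the mean. Heart 30 lies at one end of every clock gene drawn, to the right in Arntl and to the left in Dbp, while hearts 32 and 33 lie to the left in Hspa1a, Hspa1b, Hsp90aa1, Hsph1 and Hspb1.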

How the data were processed

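RNA-seq libraries of 6 ventricles were described, with each library mapped to the blank group by its label. Per the labels and the methods, the authors aligned paired reads to mm10 with TopHat2 2.0.10 and Bowtie2, made the deposited counts per gene with HTSeq, and made the deposited FPKM per gene with Cufflinks 2.1. From the counts, 37 mitochondrial genes and 27 names altered to dates by a spreadsheet (0.0446% of counts) were set aside. TPM used merged exon lengths from the deposited annotation. Variation used TMM-scaled counts of genes with a mean count of at least 50, with the Poisson part subtracted from the squared coefficient of variation. On simulated data, 86.5% of 200 genes made strongly variable passed 30%, and 0 of the others did. The median of those others, 3.98%, lay below the variation set for them, so the measure reads low. The tagwise estimate used as an alternative came from edgeR 4.0.16 in R 4.3.3. Other steps used Python 3.11.15, pandas 2.3.3 and numpy 2.4.6. Values are mean ± SD over hearts, and intervals or limits cover counting error only. No contrast was made and no p-value computed.

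The genes named were the 20 most abundant, members of the listed families, cell types and functions, and the 25 most and 15 least variable genes, the latter ordered by total variation where the excess was 0, an order set after values were seen; a few of these genes are not reported here. Members and lists were chosen with earlier results of these data known. The comparison of exon sharing and the values without heart 30 were added after seeing the data. The alternatives were another normalization, gene length, denominator, count minimum or measure of variation, the deposited FPKM, and each heart left out. Promoter windows came from RefSeq (GRCm38.p6), and 64 of 78 genes looked up had one.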

Additional observations from a re-analysis of the deposited data

Results flagged for a closer look

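A heart was set apart from the other 5 where its gap to the nearest of them, divided by the range of all 6, passed the critical value of Dixon's test, which chance alone does in about 1 of 20 groups. Of 119 levels examined, 7 met this, and heart 30 was the one set apart in 5 of them, each time as the highest heart. About 6 of 119 would meet it by chance. Genes chosen as the most variable were among those examined, and Arntl, Nfil3 and Cdkn1a passed the minimum of 50 counts only through heart 30, so the direction is in part set by that choice. Arntl stood at 43.3 CPM in heart 30, with the other hearts at 3.22 to 11.9 CPM. Nfil3, its companion on the clock list, stood at 26.7 CPM, with the others at 5.96 to 13.6 CPM. Cyp1b1 stood at 29.0 CPM against 7.17 to 11.4 CPM, and Cdkn1a at 21.6 CPM against 4.22 to 9.98 CPM. Abra stood at 139.7 CPM against 51.9 to 81.8 CPM.

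The other values concern marker lists. The summed pericyte genes reached 1118 TPM in heart 26, with the other hearts at 1041 to 1061 TPM. The summed Schwann cell genes reached 21.9 TPM in heart 32, with the other hearts at 9.32 to 13.8 TPM, on few counts per gene.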

How the results depend on the processing

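The share of nuclear TPM in the 20 most abundant genes, 21.5%, was 18.8% by FPKM, 22.0% with the longest transcript as length, 22.1% with short genes kept and 4.06% with mitochondrial genes in the denominator. The 5 lists of non-myocyte cells, 0.498% of nuclear TPM, made up 0.339% of FPKM. The median excess variation of 4.34% became 9.87% on FPKM, from which no counting part can be taken, and ranged from 3.23 to 4.36% with each heart left out. The count of 60 genes above 30% variation was 265 at a mean count of at least 10, 22 at a mean count of at least 200, 99 by FPKM and 11 by the tagwise estimate of edgeR, which shrinks genes toward a common value, and ranged from 22 (without heart 30) to 72 with each heart left out. Pdk2, at 40.6% of its family, fell behind Pdk4 with counts not scaled to length (28.1%) and without heart 26, 30 or 32, its share running from 38.6 to 43.3% with each heart left out. Cpt1a, at 90.1%, held 5.84% by FPKM. The number of families with a leader at 90% or more, 26, was 25 to 29 under every alternative run. The number of genes detected, 13136, was 13134 with the longest transcript as length and 10559 with mitochondrial genes in the denominator. Other cutoffs gave 15845 genes at a mean of at least 0.1 TPM and 11607 at 3 TPM. By FPKM it was 9697, where 1 FPKM is a higher cutoff than 1 TPM. No paired analysis was possible because only blank hearts were described and no groups were compared. Depth limits what is said of genes under about 1 TPM in single hearts.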
